A study of Arabidopsis thaliana with 9 samples.

Results

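The genes described here are Arabidopsis thaliana nuclear genes whose transcripts lay lower in both gun4-1 mutants and gabaculine-treated seedlings than in untreated seedlings of the same 6-hour greening stage. They were selected on these measured values: a probe set of 1 gene symbol was taken when its mean log2 difference from Col-0 was -0.585 or lower (a fold of 0.667 or lower) both in gun4-1 and with GAB, and when every gun4-1 and every GAB array lay below every Col-0 array. Of 22746 probe sets, 13513 carried 1 gene symbol, and 200 met the numeric limits. Of these 200, 94 were unnamed, 4 stood for several genes, and 10 were set aside by symbol, 5 as members of the expansin B, GH9 and UGT families and 5 as single genes (PRL, DFR, At3g53650, At4g14090 and At4g38950). The remaining 92 probe sets, for 92 genes, are the members.

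The arrays were ATH1 GeneChips of whole-seedling total RNA, with 3 for each of 3 groups. The gun4-1 group was the mutant in the Col-0 cultivar with no agent. The GAB group was wild-type Col-0 grown on medium that held 10 µM gabaculine, and the Col-0 group was wild type without an agent. All seedlings spent 3 days in darkness and then 6 hours in light. The values are log2 signals after robust multi-array averaging. The study states in general that its experiments were repeated independently, but no label says whether the 3 arrays of a group came from separate cultures, so p-values measure the spread between these arrays, which may be technical. The mutant stands for a single allele.

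5-aminolevulinic acid (ALA) is the first committed precursor of chlorophyll and haem, and its formation sets the flow through that pathway. Gabaculine inhibits the aminotransferase that makes ALA. GUN4 binds porphyrins and promotes Mg chelatase, the entry step of the chlorophyll branch. Signals from the plastid are known to change the expression of nuclear genes while etiolated seedlings turn green.

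The arrays of a group were alike, with correlations across probe sets of 0.996 to 0.997 and array medians of 6.41 to 6.48 in gun4-1, 6.49 to 6.52 with GAB and 6.50 to 6.57 in Col-0. The Rubisco activase gene RCA, a marker of green cotyledon tissue, had array values of 14.23 to 14.35 in gun4-1, 14.32 to 14.39 with GAB and 14.23 to 14.32 in Col-0, near the highest signal of any probe set in Col-0 (14.55). The mutated gene GUN4 was not analysed here, as the annotation used names no probe set for it. In whole seedlings, fewer cells of a type and less transcript per cell cannot be told apart.

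The members were not faint as a group. Their mean Col-0 signal had a median of 7.46, against 6.55 over all probe sets, and 65 of the 92 lay above that second value. The lowest was TRM24 with 4.81 and the highest was At1g29670 with 11.7. Detection calls were not used here, so whether the dimmest members were above background is unknown.

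The difference from Col-0 was larger in gun4-1 than with GAB for most members. Its median was -1.01 in gun4-1 (range -2.92 to -0.59) and -0.69 with GAB (range -1.93 to -0.59). Over all probe sets the medians were 0.02 in gun4-1 and 0.00 with GAB. A level 2-fold or more below Col-0 was reached by 46 members in gun4-1 and by 11 with GAB. It was reached in both by 10, in gun4-1 alone by 36, and with GAB alone by 1, At3g59670. The same 3 Col-0 arrays serve both differences, so the values stand side by side here and their likeness is not a result.

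**Figure D1:**
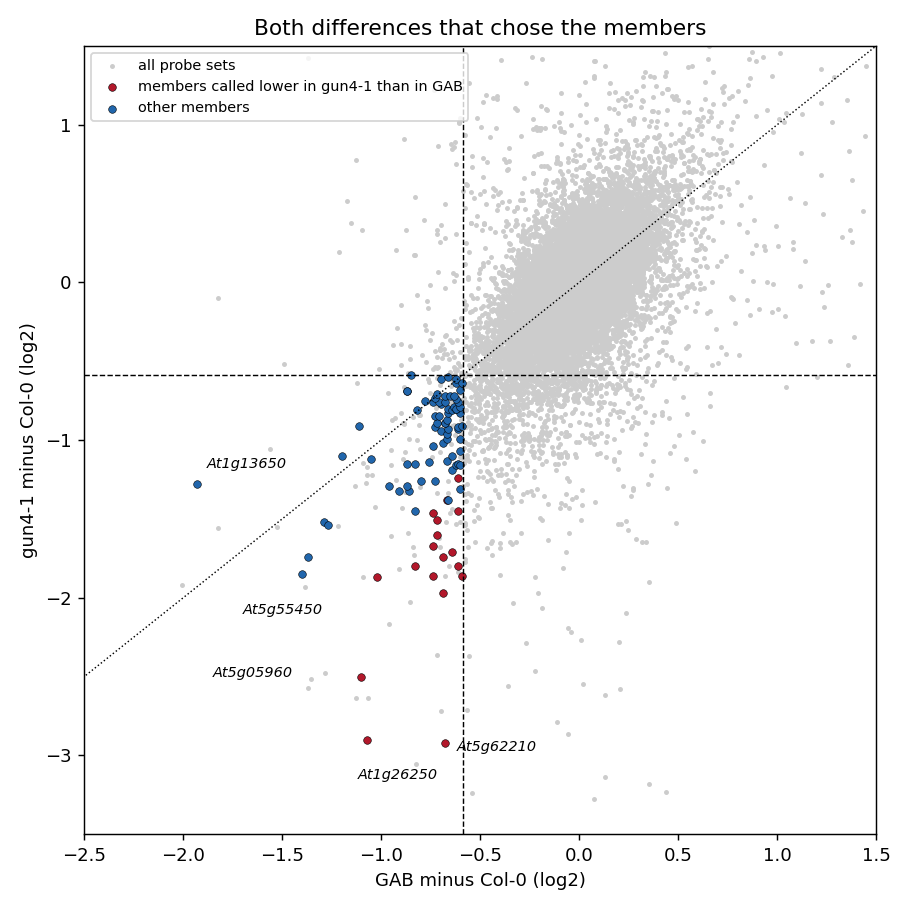
Difference in log2 signal of each member (coloured points) and each other probe set (grey) for GAB minus Col-0 (horizontal axis) and gun4-1 minus Col-0 (vertical axis). Dashed lines mark the selection limit of -0.585, the dotted line marks equal differences, and the axes leave out the most extreme other probe sets. The members fill the lower left corner by construction, and 80 of 92 lie under the dotted line.

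The selection required every gun4-1 and GAB array to lie below every Col-0 array, so the values of single arrays are a description. Relative to the Col-0 mean, the members' median was -1.03, -1.06 and -1.07 in the gun4-1 arrays, -0.67, -0.78 and -0.68 in the GAB arrays, and -0.09, 0.02 and 0.09 in the Col-0 arrays. The first Col-0 array was the lowest of its group for 55 members, the second for 20 and the third for 17. The members' median SD within a group was 0.136 in gun4-1, 0.135 with GAB and 0.165 in Col-0. Over all probe sets it was 0.113 in gun4-1, 0.095 with GAB and 0.0969 in Col-0.

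**Figure D2:**
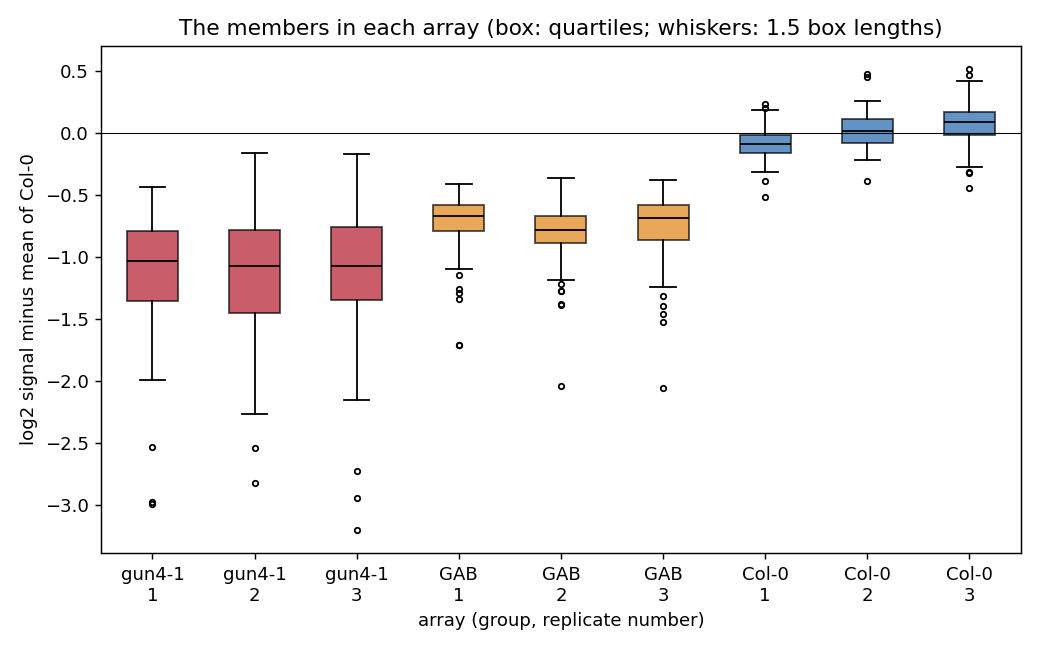
Log2 signal of the 92 members minus the gene's Col-0 mean, for each array (3 gun4-1, 3 GAB, 3 Col-0). Boxes span the quartiles around the median, whiskers reach 1.5 box lengths and points lie beyond them. Array medians sit between -1.07 and -1.03 in gun4-1, between -0.78 and -0.67 with GAB, and between -0.09 and 0.09 in Col-0. That the gun4-1 and GAB boxes lie below those of Col-0 follows from the selection.

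How far the groups stood apart varied. The distance from the highest gun4-1 array up to the lowest Col-0 array had a median of 0.67 and ran from 0.0177 for At3g16670 to 2.55 for At5g62210. With GAB the median was 0.43, from 0.0724 for At4g26660 to 1.5 for At1g13650. The closest separations went with scattered arrays. At3g16670 had an SD of 0.663 in gun4-1, where its arrays read 6.05, 5.06 and 6.32, and At4g26660 had an SD of 0.515 in Col-0, where its arrays read 4.42, 4.93 and 5.45.

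Many members sat close to the selection limit. By the smaller of their differences, 47 members were within 0.1 inside it, and 71 probe sets were within 0.1 outside it. The 3 nearest inside were At4g25890 (-0.642 in gun4-1, -0.588 with GAB), At5g01790 (-1.863 in gun4-1, -0.589 with GAB) and At2g43550 (-0.906 in gun4-1, -0.590 with GAB). The 3 nearest outside were At5g60930 (-1.145 in gun4-1, -0.582 with GAB), At5g66310 (-0.732 in gun4-1, -0.580 with GAB) and At3g13650 (-1.754 in gun4-1, -0.578 with GAB).

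Under the study's own limits (limma over all probe sets, a fold below 0.667 and a p of at most 0.05 after Benjamini-Yekutieli adjustment), 87 members were called lower in gun4-1, where 4.46% of all probe sets were. With GAB 53 members were called lower, where 0.69% of all probe sets were, and the same number were called lower in both, where 0.514% of all probe sets were. The numeric selection limits themselves took in 0.879% of all probe sets. Since these contrasts chose the members, nothing is read from those shares. The GAB count is also unstable: it was 32 without the first GAB array, 21 without the second and 30 without the third, and 22 or 23 without the second or the third Col-0 array, with the members chosen anew each time.

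The sources used here annotate 20 members. For 9 the role comes from a RefSeq symbol and for 8 from the gene descriptions that accompany the study, while 3 are described only as unknown proteins. The remaining 72 are given by locus alone. Those gene descriptions cover genes that the study listed for their lower or higher level in these same arrays, so the size of the differences in the groups that rest on them is no independent evidence.

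Secreted and cell wall proteins numbered 6 of the annotated members. Their median difference from Col-0 was -1.70 in gun4-1 and -1.23 with GAB, while the medians over all 92 were -1.01 in gun4-1 and -0.69 with GAB. All 6 were among the 10 members that lay 2-fold or more below Col-0 in both. Most of their descriptions come from the study's main list of lower genes, which was limited to changes of 2-fold or more. The overlap and the larger medians therefore follow from that source and are no result about the group.

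At1g26250 encodes a proline-rich, extensin-like protein, a class of structural wall glycoproteins. Its signals were 4.62, 5.05 and 4.39 in gun4-1, 6.33, 6.72 and 6.52 with GAB, and 7.55, 8.07 and 7.15 in Col-0. The 3 groups formed separate steps, with gun4-1 lowest and the Col-0 arrays the most scattered. The fold relative to Col-0 was 0.134 in gun4-1 and 0.477 with GAB. On the arrays it was called lower in gun4-1 but not with GAB. The study's quantitative real-time PCR at the same stage gave a significantly lower level in both groups, with a smaller change than the arrays in each.

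At5g05960 belongs to the protease inhibitor, seed storage and lipid transfer protein family of small secreted proteins. It gave 5.26, 5.54 and 5.06 in gun4-1, 6.74, 6.40 and 6.92 with GAB, and 7.51, 7.97 and 7.88 in Col-0. These groups too lay in 3 steps without overlap. At5g55450, described as a protease inhibitor, gave 4.86, 5.12 and 4.85 in gun4-1, 5.09, 5.52 and 5.56 with GAB, and 6.98, 6.41 and 7.0 in Col-0. Here the gun4-1 and GAB arrays overlapped, and both stood well under the lowest Col-0 array.

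For the 2 proteases the gun4-1 and GAB levels lay close together. The subtilase At5g45650, from a family of serine proteases, read 6.83, 6.96 and 6.91 in gun4-1, 7.28, 7.15 and 6.96 with GAB, and 8.34, 8.66 and 8.26 in Col-0. The aspartyl protease At3g61820 read 7.23, 7.24 and 7.08 in gun4-1, 7.43, 7.50 and 7.40 with GAB, and 8.47, 8.84 and 8.84 in Col-0. For both, more than 1 log2 unit lay between the Col-0 level and each of the other groups, which were within 0.26 of each other. In the study's real-time PCR at the same stage, neither gene differed significantly from Col-0 in either group. After longer light, the study's PCR gave At3g61820 significantly lower in both groups and At5g45650 in gun4-1 only. The study lists the same forward primer for At5g45650 and for another gene, so which transcript the At5g45650 PCR measured is uncertain.

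At3g47380 encodes an inhibitor of invertase or pectin methylesterase, enzymes of sugar release and of pectin in the wall. It was 6.68, 6.48 and 6.24 in gun4-1, 6.58, 6.47 and 6.04 with GAB, and 7.50, 7.67 and 7.52 in Col-0. The gun4-1 and GAB arrays were interleaved. Its differences from Col-0 were -1.10 in gun4-1 and -1.20 with GAB.

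**Figure D3:**
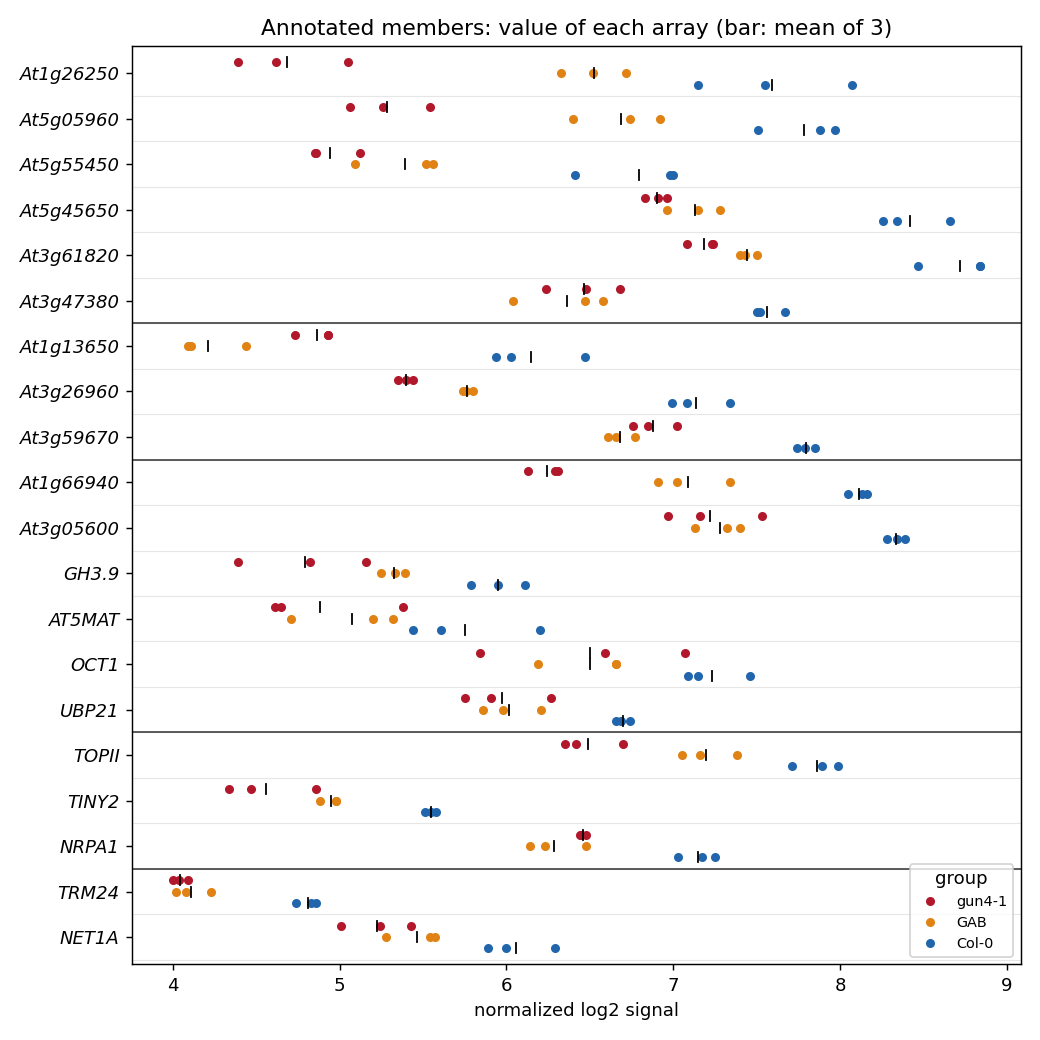
Normalized log2 signal (horizontal axis) of the 20 annotated members in each array of gun4-1, GAB and Col-0, with a bar at each group's mean of 3. Lines divide secreted and cell wall proteins (top), unknown proteins, enzymes with transport and signalling, nuclear proteins, and cytoskeletal proteins (bottom). All gun4-1 and GAB points lie left of the Col-0 points of the same gene by construction, while the order of gun4-1 and GAB differs from gene to gene.

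The proteins of unknown function included the member with the lowest level under GAB relative to Col-0, At1g13650. It was 4.73, 4.93 and 4.93 in gun4-1, 4.44, 4.11 and 4.09 with GAB, and 5.94, 6.03 and 6.47 in Col-0. Its order was turned round, with every GAB array below every gun4-1 array. The fold relative to Col-0 was 0.411 in gun4-1 and 0.263 with GAB.

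At3g26960 was 5.35, 5.44 and 5.40 in gun4-1, 5.80, 5.76 and 5.74 with GAB, and 6.99, 7.08 and 7.34 in Col-0, in 3 tight and separate steps. It was also significantly lower in both groups in the study's real-time PCR at the same stage. At3g59670 was 6.76, 6.85 and 7.02 in gun4-1, 6.77, 6.61 and 6.66 with GAB, and 7.85, 7.74 and 7.79 in Col-0. It was the 1 member 2-fold or more below Col-0 with GAB and not in gun4-1, and it lay close to that line in both (differences of -0.91 in gun4-1 and -1.11 with GAB).

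Enzymes, transport and signalling proteins numbered 6, with a median difference of -1.0 in gun4-1 and -0.70 with GAB. At1g66940, described as protein kinase-related, gave 6.31, 6.29 and 6.13 in gun4-1, 7.02, 7.34 and 6.91 with GAB, and 8.05, 8.13 and 8.16 in Col-0. The putative epoxide hydrolase At3g05600, of a class that opens epoxides of lipids, gave 7.53, 6.97 and 7.16 in gun4-1, 7.40, 7.32 and 7.13 with GAB, and 8.39, 8.34 and 8.28 in Col-0. At1g66940 was thus graded over the groups, while the hydrolase overlapped between gun4-1 and GAB. In the study's real-time PCR at the same stage, At1g66940 was significantly lower than Col-0 in gun4-1 only. The hydrolase went the other way there, significantly higher than Col-0 in gun4-1 and not significantly changed with GAB. After longer light, the study's PCR gave both genes significantly lower than Col-0 in both groups.

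GH3.9 is a member of the GH3 family, enzymes that join the auxin indole-3-acetic acid to amino acids. It read 5.16, 4.39 and 4.82 in gun4-1, 5.25, 5.39 and 5.33 with GAB, and 5.95, 5.79 and 6.11 in Col-0, so that the gun4-1 arrays spread widely below a narrow GAB group. AT5MAT, a malonyltransferase that decorates anthocyanins, read 4.61, 4.65 and 5.38 in gun4-1, 5.32, 5.20 and 4.71 with GAB, and 5.61, 6.20 and 5.44 in Col-0. Its highest gun4-1 array nearly reached its lowest Col-0 array.

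The organic cation/carnitine transporter OCT1 was equally scattered, with 5.84, 7.07 and 6.59 in gun4-1, 6.66, 6.19 and 6.66 with GAB, and 7.09, 7.46 and 7.15 in Col-0. Neither AT5MAT nor OCT1 was among the 87 members called lower in gun4-1, and the other 3 outside that count were At4g26660, At5g26790 and At3g16670. The annotated members not called lower with GAB were At1g26250, GH3.9, UBP21, AT5MAT, OCT1, TOPII, TINY2 and NET1A. The ubiquitin-specific protease UBP21, which removes ubiquitin from proteins, had differences from Col-0 of -0.72 in gun4-1 and -0.68 with GAB.

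Nuclear proteins were represented by 3 members. DNA topoisomerase TOPII, which passes DNA strands through one another and serves replication and chromosome separation, gave 6.42, 6.35 and 6.70 in gun4-1, 7.38, 7.16 and 7.05 with GAB, and 7.71, 7.89 and 7.99 in Col-0. TINY2, a transcription factor of the AP2/ERF type, gave 4.34, 4.86 and 4.47 in gun4-1, 4.98, 4.88 and 4.98 with GAB, and 5.51, 5.58 and 5.55 in Col-0. NRPA1, the largest subunit of RNA polymerase I, which transcribes ribosomal RNA genes, gave 6.44, 6.48 and 6.45 in gun4-1, 6.48, 6.14 and 6.23 with GAB, and 7.03, 7.25 and 7.17 in Col-0. TOPII and TINY2 were lowest in gun4-1, whereas NRPA1 overlapped between gun4-1 and GAB.

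The cytoskeleton supplied TRM24, of a family that recruits TON1 to microtubule arrays, and NET1A, an actin-binding protein. TRM24 was 4.04, 4.0 and 4.09 in gun4-1, 4.08, 4.02 and 4.23 with GAB, and 4.83, 4.86 and 4.74 in Col-0. NET1A was 5.24, 5.43 and 5.01 in gun4-1, 5.57, 5.54 and 5.28 with GAB, and 6.00, 5.89 and 6.29 in Col-0. The gun4-1 and GAB arrays overlapped for both, and TRM24 was the dimmest of all members in Col-0.

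Whether the mutant and the inhibitor lowered a member by the same amount was tested directly as gun4-1 minus GAB, with limma over all probe sets. The selection used the same arrays and constrains this difference on both sides. With gun4-1 at -0.585 or lower, a call of higher in gun4-1 needs GAB at about 2 times that limit, which 6 members reached. With GAB at -0.585 or lower, a call of lower in gun4-1 likewise needs gun4-1 at about 2 times that limit. The values of single members are therefore the result here, and nothing is read from the balance of the counts. Of the 92 members, 18 were called lower in gun4-1 than with GAB, where 2.48% of all probe sets were, and 0 were called higher, where 1.32% of all probe sets were. At an unadjusted p under 0.05 and with no limit on the fold, 52 members differed by limma, of which 4 were higher in gun4-1, and 39 by Student's t-test, of which 3 were higher. The share of all probe sets under this unadjusted limit was not counted, here or for the families and markers below. The median difference was -0.29 (range -2.24 to 0.65), beside 0.02 over all probe sets. The other 108 probe sets inside the same limits gave 22 lower and 0 higher calls.

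Among the 41 members with a GAB difference of -0.7 or lower, 9 were called, and among the 51 nearer the limit, 9. The count of 18 varied with the arrays used. With the members chosen anew, it was 10 without the second GAB array and 12 without the first, and at most 21 without any other array.

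**Figure D4:**
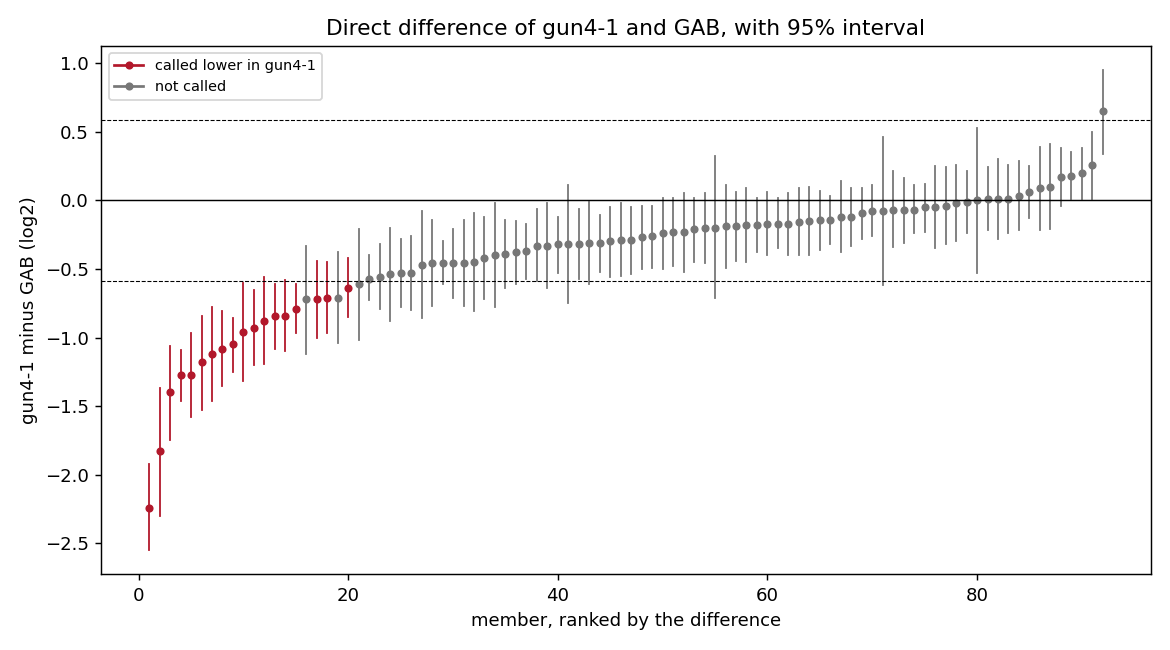
Difference of gun4-1 minus GAB in log2 signal (vertical axis) for the 92 members in order of that difference, with 95% intervals from the limma fit. Red marks the 18 members called lower in gun4-1, dashed lines mark a fold of 1.5 either way, and the values run from -2.24 to 0.65 with 12 above 0.

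At5g62210 had the largest direct difference among the members. It gave 4.86, 5.03 and 4.91 in gun4-1, 6.92, 7.48 and 7.10 with GAB, and 7.93, 8.04 and 7.58 in Col-0, so the gun4-1 arrays lay more than 1.5 log2 units below all the others. Its gun4-1 minus GAB difference was -2.24 (SE 0.145, adjusted p 2e-05 by limma), a fold of 0.212. At5g07030 gave 7.01, 6.98 and 6.88 in gun4-1, 8.27, 8.20 and 8.22 with GAB, and 8.78, 8.96 and 9.03 in Col-0. The replicates were close, and the difference was -1.27 (SE 0.0843, adjusted p 2.3e-05 by limma).

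Annotated members among the 18 were At1g26250, At5g05960, At1g66940 and TOPII, whose arrays are given above. The extensin-like At1g26250 differed by -1.83 (95% interval -2.30 to -1.37, adjusted p 0.00158 by limma) and the lipid transfer family gene At5g05960 by -1.40 (-1.75 to -1.06, adjusted p 0.00137). The kinase-related At1g66940 differed by -0.84 (-1.08 to -0.61, adjusted p 0.00297) and TOPII by -0.71 (-0.97 to -0.45, adjusted p 0.0188). The TOPII call was lost without the first or second gun4-1 array (adjusted p 0.1 and 0.0816 by limma). It was also lost without the first or second GAB array (adjusted p 0.0899 and 0.0817 by limma). By Student's t-test with Benjamini-Hochberg adjustment, none of these annotated members was called. The adjusted p was then 0.0556 for At1g26250, 0.0711 for At5g05960, 0.0831 for At1g66940 and 0.111 for TOPII.

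Several members of no annotated role stood just below Col-0 with GAB and far below it in gun4-1. At5g01790 was 6.60, 6.21 and 5.98 in gun4-1, 7.53, 7.53 and 7.56 with GAB, and 7.92, 8.27 and 8.20 in Col-0, a gun4-1 minus GAB difference of -1.27. At1g78020 was 6.61, 6.02 and 5.85 in gun4-1, 7.39, 7.18 and 7.46 with GAB, and 7.87, 7.95 and 8.04 in Col-0, a difference of -1.18. At5g17160 was 5.56, 5.77 and 5.74 in gun4-1, 6.70, 6.74 and 6.98 with GAB, and 7.30, 7.37 and 7.97 in Col-0, a difference of -1.12. In each, the gap between gun4-1 and GAB was wider than the one between GAB and Col-0.

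The same held for At3g06035, with 6.15, 6.65 and 6.40 in gun4-1, 7.45, 7.45 and 7.53 with GAB, and 7.95, 8.30 and 8.10 in Col-0. It held for At1g53070, with 5.04, 5.03 and 5.21 in gun4-1, 6.20, 6.04 and 6.20 with GAB, and 6.73, 6.95 and 6.83 in Col-0. At5g61290 was 4.64, 4.48 and 4.65 in gun4-1, an identical 5.52 in all GAB arrays, and 5.94, 6.29 and 6.54 in Col-0. At1g04770 was 7.09, 7.27 and 7.25 in gun4-1, 7.97, 8.01 and 8.01 with GAB, and 8.67, 8.64 and 8.85 in Col-0, which spaced its groups almost evenly. The adjusted p by limma of these 7 ran from 0.000161 for At1g53070 to 0.00537 for At5g17160. By Student's t-test with Benjamini-Hochberg adjustment, At5g01790 (0.0687), At3g06035 (0.064) and At1g78020 (0.113) were not called.

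The other 5 called members, At4g28780, At3g45160, At3g02640, At5g20740 and At1g31710, had gun4-1 minus GAB differences of -0.96 to -0.64 and adjusted p by limma of 0.00672 to 0.0328. At1g31710 is the 1 member whose gene has another named probe set. By the member probe set its mean differences from Col-0 were -1.24 in gun4-1 and -0.61 with GAB, and by the other -0.69 in gun4-1 and -0.34 with GAB, at levels of 5.25 in gun4-1, 5.60 with GAB and 5.94 in Col-0. Both probe sets ran in the same order of groups, and the dimmer one fell short of the GAB limit.

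At1g13650 differed the other way, by 0.65 (95% interval 0.34 to 0.95), but did not pass the test (adjusted p 0.0908 by limma). It passed with Benjamini-Hochberg adjustment (0.00856), after centring each array on its median (0.0434) and without the third Col-0 array (0.0269). All 3 gun4-1 arrays also lay above all GAB arrays for At4g20320 (difference 0.26) and At5g65860 (difference 0.18). At4g20320 was 6.26, 6.48 and 6.45 in gun4-1, 6.21, 6.10 and 6.10 with GAB, and 6.90, 7.25 and 6.82 in Col-0.

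Counted by arrays alone, 47 members had all gun4-1 arrays below all GAB arrays, where 14.2% of all probe sets did, and 3 had them all above, where 15.6% of all probe sets did. In the remaining 42 the arrays overlapped. Of the other 108 probe sets inside the limits, 49 had all gun4-1 arrays below and 2 above. As the same arrays chose the members, these shares are a description. After centring each array on its median and choosing the members anew, the first count was 28 of 65.

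For other members the interval of the direct difference was narrow. In 49 of the 92 the 95% interval lay within a fold of 1.5 either way. The share over all probe sets was not counted, and the selection also bounds this difference, so nothing is read from that number. TRM24 differed by -0.07 (-0.24 to 0.11), NRPA1 by 0.17 (-0.04 to 0.38), At3g61820 by -0.26 (-0.49 to -0.04) and At3g47380 by 0.10 (-0.21 to 0.41). The intervals of AT5MAT (-0.71 to 0.32) and At3g16670 (-0.62 to 0.46) were too wide for such a statement.

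Relatives of the annotated members were compared by symbol family, and these families were picked after the values were seen. Of 12 RNA polymerase subunits with a named probe set, 2 were called lower in gun4-1 than in Col-0, where 4.46% of all probe sets were. They were the selected NRPA1 and the polymerase II subunit NRPB9B (-0.66). With GAB only NRPA1 was called lower, where 0.69% of all probe sets were. NRPA2, the second-largest subunit of RNA polymerase I, had differences of -0.47 in gun4-1 and -0.31 with GAB. In gun4-1 it passed the adjusted p (0.017 by limma) but fell short of the fold limit. The same held for NRPB9A in gun4-1 (-0.46, adjusted p 0.0289 by limma). The median of these 12 was -0.42 in gun4-1 and -0.14 with GAB, and 11 of the 12 were below 0 in gun4-1. Over all probe sets the medians were 0.02 in gun4-1 and 0.0 with GAB.

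Among 4 genes whose symbol begins with GH3, 1 was called lower in gun4-1, GH3.9 itself, where 4.46% of all probe sets were. GH3.1, GH3.3 and GH3.17 had differences of -0.04 to 0.08 in gun4-1. Similarly 1 of 10 NET genes, 1 of 14 TRM genes and 1 of 12 UBP genes was called lower in gun4-1, in each case the member. The members were selected for being lower, so their own calls are no result about these families. NET1B, with -0.55 in gun4-1 and -0.27 with GAB, came nearest to NET1A. In gun4-1 NET1B passed the adjusted p (0.00175 by limma) but fell short of the fold limit. Among 8 other subtilases named by symbol, 3 were called lower in gun4-1 (SBT4.12 with -1.51, SBTI1.1 with -0.99 and SBT1.3 with -0.67), where 4.46% of all probe sets were. With GAB 0 of the 8 were called by limma, where 5 had an unadjusted p under 0.05 by limma and 2 by Student's t-test. The other two OCT genes lay on the opposite side of Col-0 from OCT1 without passing the test, OCT4 with 0.39 in gun4-1 and 0.38 with GAB, and OCT5 with 0.28 in gun4-1 and 0.44 with GAB.

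Lipid transfer proteins, from a list set up with earlier results of these data known, had 7 named probe sets, including the already selected At5g05960 and At5g55450. In gun4-1 3 of the 7 were called lower, those members and At1g48750 (-1.51 in gun4-1, -0.53 with GAB), where 4.46% of all probe sets were. With GAB 2 were called lower, both members, and At5g13900 was called higher (-0.35 in gun4-1, 1.39 with GAB). Against GAB, 5 of the 7, with 1 of those members among them, were called lower in gun4-1, where 2.48% of all probe sets were, with a median of -0.77 for the list. The 7 measured genes, of 20 listed, thus held both signs with GAB. That the members were the lowest of them with GAB follows from their selection.

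Markers of other cell types that the seedlings could hold were measured in part. The stomatal lineage factors SPCH, MUTE and FMA had median differences from Col-0 of -0.33 in gun4-1 and -0.11 with GAB, and 0 of the 3 were called by limma in either. SPCH in gun4-1 passed the adjusted p (0.0382 by limma) at a difference of -0.54, short of the fold limit. An unadjusted p under 0.05 was found by limma for 2 in gun4-1 and 1 with GAB, and by Student's t-test for 2 in gun4-1 and 0 with GAB. They had array means of 4.65 to 4.68 in gun4-1, 4.75 to 4.97 with GAB and 4.85 to 5.03 in Col-0. The root hair expansins EXPA7 and EXPA18 had array means of 5.69 to 6.09 in gun4-1, 4.93 to 5.30 with GAB and 5.40 to 5.76 in Col-0. EXPA7 was called higher in gun4-1 than with GAB (0.85, adjusted p 0.0149 by limma), a direction opposite to that of the 18 members. Whether cell make-up has a part in the members' values was not tested.

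The members were scattered over the genome. All 92 were placed by RefSeq, no pair of them was adjacent, and 1 pair lay within 5 genes, the subtilase At5g45650 and At5g45700 with 4 genes between.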

How the data were processed

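The authors deposited log2 signals made by robust multi-array averaging of the 9 arrays. Affymetrix Expression Console is named in the submitters' notes without a version, and replicates were not pooled. Summarization and quantile scaling assume that most probe sets do not change, and low signals are compressed. Each sample is 1 array, so depth does not apply and 3 arrays per group limit the precision.

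Values were used as deposited, without 64 control probe sets. Probe sets were named from the platform annotation and loci from RefSeq (TAIR10.1), used for names and gene order only. One limma (3.58.1, R 4.3.3) fit of 3 groups was made over 22746 probe sets, adjusted by Benjamini-Yekutieli as in the study, and was tested on simulated data. Replicate numbers were not taken as pairs.

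Members and lists were chosen with earlier results of these data known. Array values are printed for the 10 members with the lowest mean of both differences, the 12 called members with the lowest adjusted p in gun4-1 minus GAB and up to 4 members per function group, and a few others that were chosen after their values were seen. Families by symbol were added after values were seen. Alternatives covered scaling, filters, adjustment, variance model, fold limits and left-out arrays.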

Additional observations from a re-analysis of the deposited data

How the results depend on the processing

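With 3 arrays a group, the selection and the GAB calls depended on single arrays. Leaving out 1 array at a time gave 76 to 129 members (92 with all), 21 to 49 called lower with GAB (53), 68 to 122 lower in gun4-1 (87), 21 to 48 lower in both (53), 10 to 21 lower in gun4-1 than with GAB (18), 0 to 1 higher (0), and a median gun4-1 minus GAB of -0.32 to -0.22 (-0.29). The lowest GAB count came without the second GAB array. The cause was not tested, but fewer arrays also leave fewer degrees of freedom.

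Centring each array on its median left 65 members, with 35 lower with GAB, 35 lower in both, 1 higher in gun4-1 than with GAB and 28 with all gun4-1 arrays below GAB. Quantile scaling left 80 members. Benjamini-Hochberg adjustment, a milder correction, gave 87 lower with GAB, 87 in both and 1 higher. The methods' t-test, Student's, gave 89, 87 and 1 for these without adjustment, but 3, 3 and 0 after Benjamini-Hochberg, with 7 lower in gun4-1 than with GAB. A limit of -1 left 10 members and one of -0.5 gave 150. Keeping 2 further GH9 genes made 94. Of members at -0.7 or lower with GAB, a limit chosen after seeing the data, 9 were lower in gun4-1 than with GAB.

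Same-numbered arrays correlated at -0.0666 to 0.265 in their deviations (7 of 9 pairs above 0) and other arrays at -0.335 to 0.187, so a pairing by number was not established. A fit with the replicate block gave 18 lower in gun4-1 than with GAB, 64 lower with GAB and 88 lower in gun4-1. No called gun4-1 minus GAB value of a named member changed sign. The uncalled values of At3g05600 (-0.22 to 0.06 over left-out arrays), At3g47380 (-0.06 to 0.21), OCT1 (-0.28 to 0.33) and UBP21 (-0.19 to 0.07) took both signs. Under at least 1 alternative 7 named members lost their call and 1, At1g13650, gained one. Those that lost it were At1g26250, At5g05960, At1g66940, TOPII, At5g01790, At3g06035 and At1g78020. Promoter motifs were not run, because no promoter sequence was used here.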

Other observations

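The numeric limits also took in 98 probe sets that were unnamed or stood for several genes, and these are values without a gene here. Their median difference from Col-0 was -1.05 in gun4-1 and -0.74 with GAB, and gun4-1 lay below GAB in 82 of the 98. The mirrored limits upward, with both differences past a fold of 1.5 and all arrays above Col-0, were met by 117 probe sets, beside the 200 downward.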
